A study of Homo sapiens with 105 samples.

Results

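The comparison set outer membrane vesicles (OMVs) of the Gram-negative bacterium Proteus mirabilis against membrane vesicles (MVs) of the Gram-positive bacteria Enterococcus faecalis and Lacticaseibacillus casei, all given to Caco-2 cells. Its members were the libraries whose titles name one of these vesicles, without added RNA or LPS, at 10 or 24 h. They were 22 libraries, beside 83 others in the series. Of these, 8 came from P. mirabilis OMVs and 14 from the MVs. Caco-2 (HTB-37) is a line from a human colon adenocarcinoma that forms an enterocyte-like epithelium. The strains were DSM 4479 for P. mirabilis, DSM 20478 for E. faecalis and DSM 20011 for L. casei. The labels give 6e+09 particles of P. mirabilis OMVs, 7.5e+09 of E. faecalis MVs and 1.5e+11 of L. casei MVs. The species and the dose therefore cannot be told apart. The controls of the study for vesicles were PBS and P. mirabilis LPS, and PBS is used here. No group carried another agent or a genetic change, and all came from the one cell line in culture. The comparison asked which transcripts separate cells given vesicles with a Gram-negative outer membrane from cells given vesicles of either Gram-positive species.

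OMVs bud from the outer membrane and carry lipopolysaccharide (LPS), while MVs of Gram-positive bacteria arise from the cytoplasmic membrane and carry lipoproteins and lipoteichoic acid. LPS is sensed by TLR4 together with LY96 (MD-2) and CD14, lipoproteins are sensed by TLR2, and both receptors signal through MYD88 to the transcription factor NF-kappaB. NF-kappaB then raises genes of chemokines and antimicrobial proteins, and also its own inhibitors, which end the response.

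Lanes 2 to 4 of 1 of the 2 flow cells held libraries whose labelled time is doubtful. In these lanes lay 8 of the 22 libraries, and only 2 of the 8 were nearest to libraries of their own labelled time, whereas all 14 of the others were. The profiles compared with were means by time and replicate number over libraries outside these lanes. All 8 were of replicates 4 or 5, which had few libraries outside the lanes at 24 h. Lane and replicate number therefore enter this contrast. The 14 others were used. They comprised 3 libraries of P. mirabilis OMVs, 2 of E. faecalis MVs and 3 of L. casei MVs at 10 h, and 2 of each at 24 h. Total counts in the 14 ran from 1384362 to 8387329, and the shallowest library was replicate 2 of E. faecalis MVs at 24 h. The epithelial markers EPCAM, CDH1, KRT8, KRT18, VIL1, CDH17 and CDX2 were found in every one of the 14, with the lowest value at 154 CPM for CDX2, where CPM is the count per 1000000 counts of the library. KRT20 ranged from 0 to 10.6 CPM. The leukocyte marker PTPRC and the endothelial marker CDH5 had 0 counts throughout. The summed CPM of the 5 leukocyte markers lay at 2.21 to 4.69 after OMVs and 2.31 to 5.54 after MVs at 10 h, and at 2.39 to 2.97 against 2.51 to 5.05 at 24 h. For the 3 endothelial markers the sums were 2.82 to 4.31 against 4.82 to 8.29 at 10 h and 2.97 to 5.44 against 4.15 to 6.39 at 24 h. The 3 fibroblast markers summed to 16.9 to 18.2 against 20.2 to 26.8 at 10 h and to 38.4 to 52 against 39.4 to 48.6 at 24 h, nearly all of it COL1A1, since COL1A2 and DCN had 1 count each in the 14 libraries. The 2 goblet cell markers summed to 19.6 to 24.4 against 24.1 to 28.5 at 10 h and 44.3 to 45 against 32.2 to 50.8 at 24 h, and the enteroendocrine marker CHGA did not exceed 1.62 CPM. The part of these markers in the results was not tested. In bulk RNA, fewer cells of a kind and less RNA per cell cannot be told apart.

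Each difference below is P. mirabilis OMVs minus the mean of the E. faecalis and L. casei groups, each species weighing the same, on the log2 scale with its standard error (SE). Genes passed the test at an adjusted p under 0.05 over the 18775 genes tested. At 10 h, 93 genes were higher after OMVs (0.495% of the genes tested) and the rest of the 197 called were lower (0.554%). At 24 h, 18 genes were higher (0.0959%) and 1 was lower (0.00533%). Over both times together, 80 were higher (0.426%) and 49 were lower (0.261%). Of the 197 genes at 10 h, 15 differed more than 2-fold, and 11 of the 197 also passed at 24 h. The labels give the replicate numbers no culture or day, so these p-values measure the spread between libraries, which may be technical.

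These counts depended on the pairing of libraries by replicate number and on the lanes set aside. Without the replicate block, 20 genes passed at 10 h (19 higher, 1 lower), 3 at 24 h and 13 over both times. With every library of the series and the block, 8, 0 and 7 passed. The edgeR count of 0 stood beside 824 genes at an unadjusted p under 0.05. That is fewer than a share of 0.05 of the 18775 genes tested, the share that would fall there if no gene differed. The 8 at 10 h were PERP, PI3, SAT1, SDCBP, CXCL5, CXCL10, ABAT and SOD2, each higher after OMVs. SAT1 and ABAT lie outside the naming rule and were chosen after their values were seen. Among single libraries, the 10 h count fell most without replicate 2 or 3 of P. mirabilis OMVs, to 71 and 112, and without replicate 3 of E. faecalis MVs, to 97.

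Genes that regulate NF-kappaB were among the higher genes at both times in the fit with the replicate block and the 14 libraries. Of 28 tested members of a list of 29 NF-kappaB subunits and feedback genes, 3 were higher at 10 h (TNFAIP3, IKBKE and NFKBIB), 4 at 24 h (TNFAIP3, IKBKE, NFKBIA and RELB) and 5 over both times (the 4 of 24 h and ZC3H12A), and none was lower. The median difference of the list was 0.06 at 10 h and 0.20 at 24 h, beside 0 and 0.01 over all genes tested. Without the block 2 members passed at 10 h, 1 at 24 h and 2 over both times. With every library of the series and the block, none passed at 10 or 24 h and 1 did over both times.

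TNFAIP3 encodes A20, an enzyme that removes activating ubiquitin chains and restrains NF-kappaB. At 10 h it lay at 72.1, 73.8 and 79.9 CPM in replicates 2, 3 and 4 of OMVs, at 54.8 and 40.2 in replicates 2 and 3 of E. faecalis MVs and at 55.2, 42.8 and 49 in replicates 2, 3 and 4 of L. casei MVs. At 24 h it lay at 85.4 and 69.6 CPM after OMVs against 34.6 and 34.9 after E. faecalis MVs and 37 and 35.5 after L. casei MVs. All OMV libraries stood above all MV libraries at both times. The difference was 0.63 ± 0.08 at 10 h (1.54-fold, adjusted p = 1.25e-08) and 1.10 ± 0.10 at 24 h (2.14-fold, adjusted p = 4.93e-13). The change of the difference between times, 0.48 ± 0.13, did not pass (adjusted p = 0.317).

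NFKBIA encodes the inhibitor IkappaB-alpha, which holds NF-kappaB in the cytoplasm. At 24 h it lay at 46.5 and 39.8 CPM after OMVs, against 12.4 and 30.2 after E. faecalis MVs and 26.2 and 29.5 after L. casei MVs. The OMV libraries stood above the MV libraries, among which the shallow E. faecalis library at 12.4 was far below the rest. The difference was 0.69 ± 0.14 (adjusted p = 0.00843), and it no longer passed without that library, without replicate 2 of OMVs or without replicate 2 of L. casei MVs, with an adjusted p of up to 0.801. At 10 h it was 0.08 ± 0.11 (adjusted p = 0.875).

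IKBKE, a kinase of innate immune signalling related to the IkappaB kinases, lay at 26, 37.3 and 29.3 CPM after OMVs at 10 h and at 16.3 to 22.1 CPM in the 5 MV libraries. At 24 h it lay at 31.9 and 27.6 CPM against 15.2 to 23.5 in the 4 MV libraries, again without overlap. The differences were 0.69 ± 0.11 (adjusted p = 2.99e-05) and 0.73 ± 0.15 (adjusted p = 0.0107). The first no longer passed without replicate 3 of OMVs (adjusted p = 0.0502), and the second held in only 2 of the 6 fits that left out 1 library. RELB, a subunit of the alternative NF-kappaB pathway, lay at 21.6 and 17.4 CPM after OMVs at 24 h against 7.61 to 12.4 in the MV libraries. Its difference of 0.95 ± 0.21 (adjusted p = 0.037) held in 1 of 6 such fits at 24 h, while that over both times was 0.68 ± 0.13 (adjusted p = 9.73e-04). NFKBIB, a second IkappaB inhibitor, differed by 0.33 ± 0.08 at 10 h (adjusted p = 0.0152), kept in 4 of 8 fits. BIRC3, an inhibitor of apoptosis that NF-kappaB induces, gave 0.25 ± 0.18 at 10 h (adjusted p = 0.71) and 0.64 ± 0.27 at 24 h (adjusted p = 0.849).

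**Figure D1:**
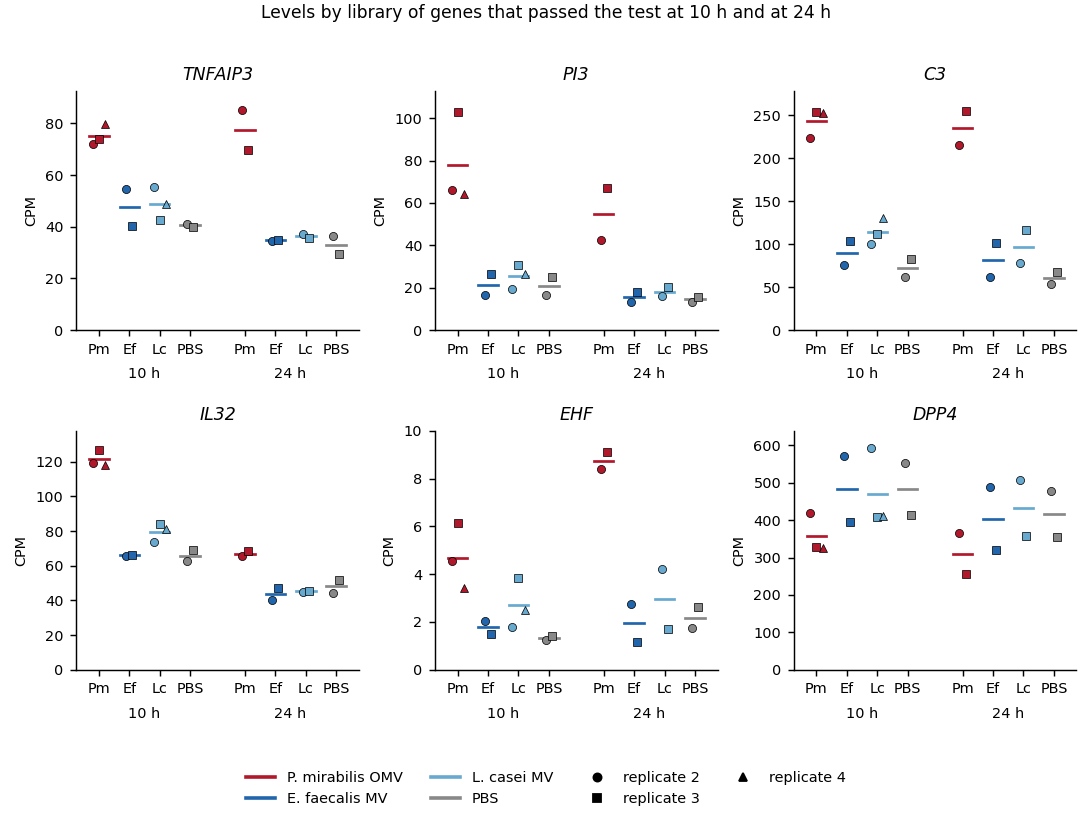
CPM (linear axis from 0) of 6 genes in each library, for P. mirabilis OMVs (Pm), E. faecalis MVs (Ef), L. casei MVs (Lc) and PBS at 10 and 24 h. Points are libraries, their shape gives the replicate number and horizontal lines are group means. TNFAIP3, PI3, C3 and IL32 stood higher in every OMV library than in any MV library of the same time, and DPP4 was lower within each replicate number.

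Of the 9 raised members of the NF-kappaB and chemokine lists, 8 matched an entry in the RefSeq promoter table of GRCh38.p14, which spans 250 bases before to 50 after the gene start. The 10-base NF-kappaB consensus was searched for on both strands and was found in 5 of the 8 (62.5%), those of TNFAIP3, NFKBIA, CXCL5, CXCL10 and CCL20, and not in those of IKBKE, NFKBIB and ZC3H12A. RELB was not matched. The consensus was found in 11.3% of all 35116 promoters in the table and in 19 of the 40 members of both lists with an entry (47.5%). With the first base of the consensus left free the shares were 32% of all promoters, 67.5% of the members and again 62.5% of the raised ones. These matches describe the letters in the windows and name no bound site. The promoters below are shown because their genes are the 3 chemokines that were called and TNFAIP3, an inhibitor called at both times. They are written 5′ to 3′ on the strand of the gene, with matches on either strand in capitals. TNFAIP3 is at chr6:137867009-137867308 on the plus strand, CXCL5 at chr4:73998628-73998927 on the minus strand, CXCL10 at chr4:76023448-76023747 on the minus strand and CCL20 at chr2:227813592-227813891 on the plus strand.
TNFAIP3: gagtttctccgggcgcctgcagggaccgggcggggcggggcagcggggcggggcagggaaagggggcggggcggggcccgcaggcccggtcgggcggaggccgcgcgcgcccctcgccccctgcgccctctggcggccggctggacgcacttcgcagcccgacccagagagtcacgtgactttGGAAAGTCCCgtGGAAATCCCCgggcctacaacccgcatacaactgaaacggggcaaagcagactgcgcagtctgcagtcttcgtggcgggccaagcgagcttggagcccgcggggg
CXCL5: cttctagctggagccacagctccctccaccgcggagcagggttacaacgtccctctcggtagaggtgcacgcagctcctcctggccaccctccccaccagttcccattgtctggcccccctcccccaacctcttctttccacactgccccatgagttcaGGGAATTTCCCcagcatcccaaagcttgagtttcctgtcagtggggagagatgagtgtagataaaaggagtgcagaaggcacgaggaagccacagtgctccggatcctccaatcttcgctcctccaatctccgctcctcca
CXCL10: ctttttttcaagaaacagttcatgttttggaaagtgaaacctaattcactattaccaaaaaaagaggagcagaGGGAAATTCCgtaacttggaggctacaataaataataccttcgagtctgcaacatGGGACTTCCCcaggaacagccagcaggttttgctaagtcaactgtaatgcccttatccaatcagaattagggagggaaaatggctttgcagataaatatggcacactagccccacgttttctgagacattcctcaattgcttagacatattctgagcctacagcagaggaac
CCL20: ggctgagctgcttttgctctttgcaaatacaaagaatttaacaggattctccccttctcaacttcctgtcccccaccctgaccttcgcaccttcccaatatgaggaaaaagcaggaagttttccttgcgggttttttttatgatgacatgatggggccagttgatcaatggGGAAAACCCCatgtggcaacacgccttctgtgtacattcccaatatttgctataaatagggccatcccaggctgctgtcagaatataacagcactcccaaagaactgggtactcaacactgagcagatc
The matches in TNFAIP3 began 67 and 55 bases before the start, that in CCL20 at 79, those in CXCL10 at 177 and 122, and those in CXCL5 at 91 and, on the other strand and overlapping it, at 90. The match of CXCL10 at 122 was found on both strands.

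Of 18 listed chemokine genes, 8 had enough counts to be tested, and CXCL5 and CXCL10 were higher at 10 h, CCL20 was higher at 24 h, and CCL20 and CXCL10 were higher over both times. None was lower, and for none of the 8 did the difference change between the times beyond the test. The adjusted p of that change was 0.767 for CXCL5, 0.979 for CXCL10 and 0.764 for CCL20. The median difference of the 8 was 0.36 at 10 h, also with CXCL5 at its bound given below, and 1.06 at 24 h. These genes had few counts, which bounds their precision.

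CXCL5, a ligand of CXCR2 that attracts neutrophils, lay at 6.57, 8.23 and 4.49 CPM in replicates 2, 3 and 4 of OMVs at 10 h. It had 0 counts in both E. faecalis libraries and 0.395, 2.17 and 0.771 CPM in the L. casei libraries, and all OMV libraries stood above them. In counts, 134 after OMVs stood against 19 after L. casei MVs, a ratio of 5.70 with an exact 95% interval of 3.51 to 9.76 that covers counting error only. Against E. faecalis MVs CXCL5 was at least 22.3-fold higher, taking a floor of 3 counts over the group, and the same floor gave at least 21.1-fold against PBS, which was also at 0. The adjusted p of the pooled test was 1.77e-10, and its fitted fold depends on the prior count and is not given. At 24 h there were 2 counts on each side.

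CXCL10, a ligand of CXCR3 that attracts T cells, lay at 2.5, 4.18 and 3.77 CPM after OMVs at 10 h, at 0.926 and 0.865 after E. faecalis MVs and at 0.198, 0.333 and 0.386 after L. casei MVs. The groups did not overlap. The difference was 2.62 ± 0.43 (adjusted p = 2.38e-05), from 71 counts against 14. At 24 h the 2 OMV libraries at 2.16 and 1.3 CPM again lay above the MV libraries at 0.167 to 0.691, from 14 counts against 7, and the difference of 2.20 ± 0.73 did not pass (adjusted p = 0.558). Over both times it was 2.41 ± 0.44 (adjusted p = 2.94e-04).

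CCL20, the ligand of CCR6, lay at 2.97 and 3.26 CPM after OMVs at 24 h, at 0 and 0.334 after E. faecalis MVs and at 0.673 and 1.2 after L. casei MVs. These were 26 counts against 13. The difference of 2.65 ± 0.60 (adjusted p = 0.037) passed in none of the 6 fits that left out 1 library, while that over both times, 1.77 ± 0.38 (adjusted p = 0.00433), passed in 12 of 14 and was lost without replicate 3 of E. faecalis MVs or replicate 2 of OMVs at 24 h. CXCL1, a further CXCR2 ligand, lay at 4.86 and 5.44 CPM against 0 to 2.17 at 24 h and did not pass (1.52 ± 0.39, adjusted p = 0.141). CXCL8 was not tested, with 25 counts after OMVs and 19 after MVs at 10 h.

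**Figure D2:**
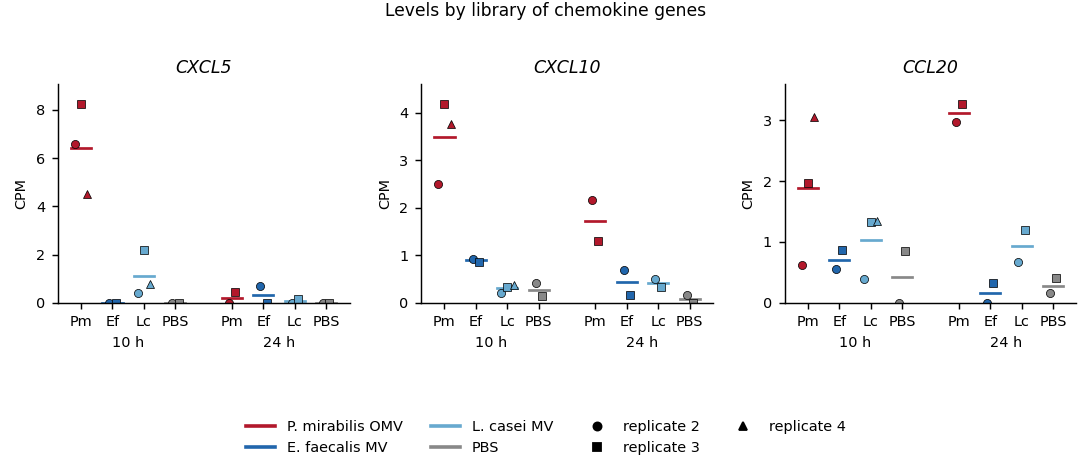
CPM (linear axis from 0) of the chemokine genes CXCL5, CXCL10 and CCL20 in each library, with groups, symbols and lines as in the plot of TNFAIP3 and 5 other genes. CXCL5 and CXCL10 were higher in each of the 3 OMV libraries than in any MV library at 10 h, and CCL20 was so in the 2 OMV libraries at 24 h, all at a few CPM.

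Among 13 tested cytokine and TNF family genes of 26 listed, IL32, TNFRSF9 and LTB were higher at 10 h and IL32 at 24 h and over both times. The median differences were 0.05 and 0, close to those of all genes. IL32, a cytokine that induces other inflammatory mediators, lay at 119, 127 and 118 CPM after OMVs at 10 h, at 65.8 and 66.4 after E. faecalis MVs and at 73.5, 84 and 81.2 after L. casei MVs. The 24 h values were 65.4 and 68.7 CPM against 40.1 to 47.1. The ranges did not overlap at either time, and the differences were 0.72 ± 0.07 (adjusted p = 1.04e-12) and 0.58 ± 0.10 (adjusted p = 4.21e-04). The latter was lost without replicate 2 of OMVs (adjusted p = 0.0652).

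TNFRSF9 (4-1BB), a receptor that costimulates lymphocytes, lay at 12.4, 5.4 and 4.31 CPM after OMVs at 10 h and at 1.33 to 5.14 CPM after MVs. The ranges overlapped, because replicate 2 was high in every group, and within each replicate number the OMV library was higher. Its difference was 1.61 ± 0.26 (adjusted p = 2.24e-05). LTB, a subunit of lymphotoxin, lay at 1.84 to 3.05 CPM against 0 to 1.16, and differed by 2.03 ± 0.42 (adjusted p = 0.00213). The call for LTB was lost without replicate 2 of OMVs or of E. faecalis MVs, with an adjusted p of up to 0.138.

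Antimicrobial, antiprotease and oxidase genes gave 4 higher members of 13 tested (22 listed) at 10 h, PI3, SOD2, DUOX2 and NOX1. PI3 alone passed at 24 h, and PI3, SOD2 and PIGR passed over both times. No member was lower, and the median difference was 0.30 at 10 h and 0.10 at 24 h. PI3 encodes elafin, a secreted inhibitor of neutrophil elastase. It lay at 66, 103.2 and 64.3 CPM after OMVs at 10 h, at 16.5 and 26.4 after E. faecalis MVs and at 19.4, 30.8 and 26.4 after L. casei MVs. At 24 h the values were 42.4 and 67.2 CPM against 13.1 and 17.9 and against 16.1 and 20.1. Every OMV library was more than any MV library, with differences of 1.74 ± 0.11 (3.34-fold, adjusted p = 3.11e-19) and 1.71 ± 0.15 (3.26-fold, adjusted p = 1.10e-12).

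DUOX2 and NOX1 encode epithelial oxidases that make hydrogen peroxide and superoxide. DUOX2 lay at 5.94, 8.23 and 8.62 CPM after OMVs at 10 h and at 0.556 to 5.98 CPM after MVs, with the highest MV library, replicate 4 of L. casei MVs, just above the lowest OMV library. The difference was 1.60 ± 0.37 (adjusted p = 0.0148) and was lost without replicate 3 of E. faecalis MVs or of L. casei MVs. NOX1 lay at 30 to 34.9 CPM against 14.6 to 24.9, with no overlap, and differed by 0.74 ± 0.14 (adjusted p = 5.64e-04). PIGR, which carries IgA across the epithelium, gave 1.77 ± 0.44 over both times (adjusted p = 0.0299), at up to 2.43 CPM in the OMV libraries. Its call was kept in 7 of 14 fits that left out a library, with an adjusted p of up to 0.379, and was lost without the block.

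SOD2, the mitochondrial superoxide dismutase, was 1 of 3 genes whose difference itself changed between the times (3 of 18775, 0.016%). At 10 h it lay at 288, 265 and 223 CPM after OMVs, at 184 and 148 after E. faecalis MVs and at 193, 165 and 155 after L. casei MVs. At 24 h it lay at 182 and 147 CPM after OMVs and at 133 to 166 after MVs, so that the ranges, apart at 10 h, overlapped at 24 h. The difference was 0.64 ± 0.05 at 10 h (adjusted p = 2.82e-16) and 0.11 ± 0.07 at 24 h (adjusted p = 0.948), and the later minus the earlier was -0.52 ± 0.09 (adjusted p = 6.99e-04). SDCBP encodes syntenin-1, a scaffold that binds syndecans. It lay at 94, 113 and 101.5 CPM after OMVs against 51.3 to 73.3 after MVs at 10 h and at 53.2 and 55.7 against 44.9 to 61.1 at 24 h. Its difference changed by -0.70 ± 0.14 (adjusted p = 0.0481).

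XBP1, a transcription factor of the unfolded protein response, ran the other way. It lay at 130, 132 and 137 CPM after OMVs at 10 h, below every MV library (163 to 189), and at 223 and 186 CPM at 24 h, among the MV libraries (174 to 223). The difference was -0.41 ± 0.06 at 10 h (adjusted p = 4.80e-06) and 0.10 ± 0.07 at 24 h (adjusted p = 0.992), a change of 0.51 ± 0.10 (adjusted p = 0.012). The time test kept SOD2 in 13 of 14 fits that left out 1 library, being lost without replicate 3 of OMVs at 24 h, XBP1 in 9 and SDCBP in 3. Its count ran from 0, without that same OMV library, to 4, and was 1 without replicate 3 of E. faecalis MVs at 10 h, replicate 2 of E. faecalis MVs at 24 h, or replicate 2 of OMVs at either time. Without the replicate block no gene passed the time test, with 472 at an unadjusted p under 0.05, fewer than a share of 0.05 of the genes tested.

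**Figure D3:**
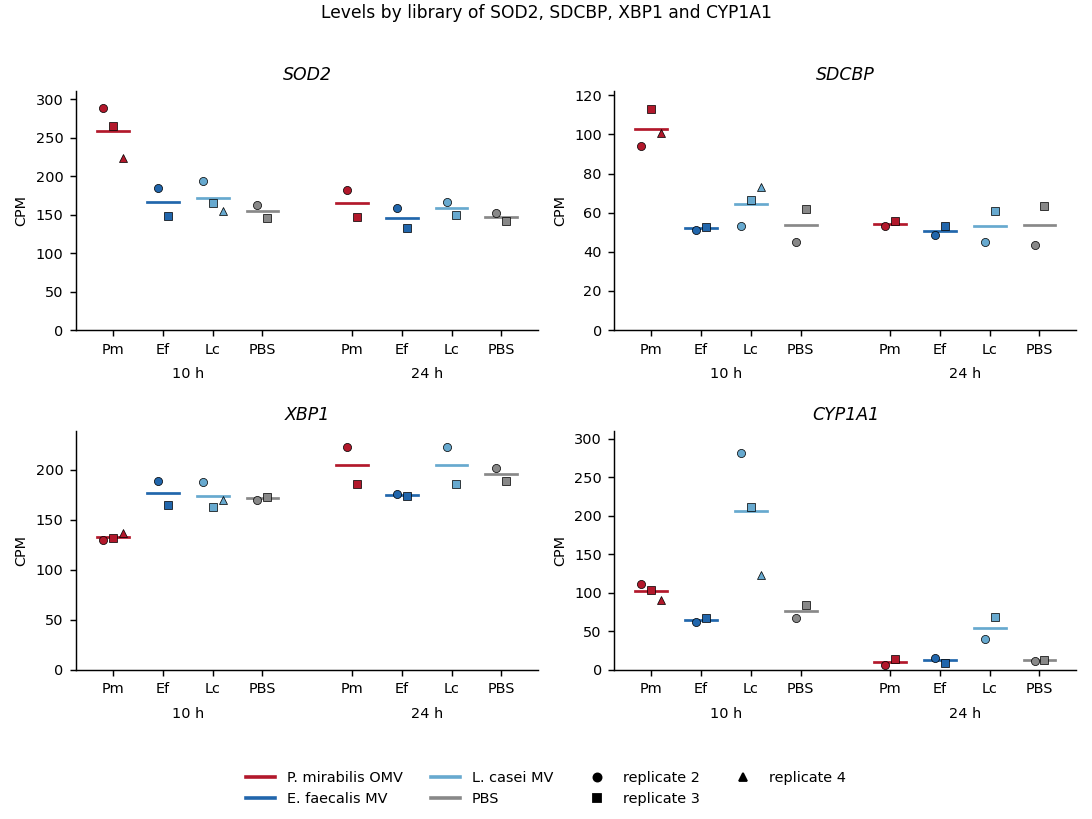
CPM (linear axis from 0) of SOD2, SDCBP, XBP1 and CYP1A1 in each library, with groups, symbols and lines as in the plot of TNFAIP3 and 5 other genes. SOD2 and SDCBP were higher and XBP1 lower in the OMV libraries than in all MV libraries at 10 h and not at 24 h, and CYP1A1 was highest after L. casei MVs.

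Complement gave a raised and a lowered member. Of 12 tested genes (16 listed), C3 was higher at both times and C5 was lower at 10 h, with list medians of -0.03 at 10 h and 0.08 at 24 h. C3, the central component on which the activation pathways converge, lay at 224, 254 and 253 CPM after OMVs at 10 h and at 99.6, 112 and 130 after L. casei MVs, and E. faecalis MVs gave 76.1 in replicate 2 and a value between those of L. casei in replicate 3. The 24 h values were 215 and 255 CPM against 62.2 to 116. No MV library reached the OMV libraries, and the differences were 1.22 ± 0.13 (2.33-fold, adjusted p = 6.41e-08) and 1.40 ± 0.16 (2.63-fold, adjusted p = 1.09e-06). C5, the precursor of the chemoattractant C5a, lay at 5.75 to 10 CPM after OMVs at 10 h against 8.48 to 16.4, and differed by -0.70 ± 0.15 (adjusted p = 0.00197), with ranges that overlapped.

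For MHC class I and the interferon response, 24 of 32 listed genes were tested, with medians of 0.06 at 10 h and 0.17 at 24 h. HLA-E, a ligand of natural killer cell receptors, and TAPBP (tapasin), which helps to load peptides, were higher at 10 h, no member passed at 24 h, and 3 passed over both times. Without the block none of the 24 passed at 10 h, at 24 h or over both times. HLA-E lay at 90.5, 71.6 and 60.2 CPM after OMVs at 10 h against 50.8 to 63.1 after MVs, which overlapped with replicate 4 of OMVs, differing by 0.41 ± 0.07 (adjusted p = 1.16e-04). Its call was kept in 8 of 8 fits that left out a library at 10 h and in 6 of 14 over both times. TAPBP differed by 0.22 ± 0.06 (adjusted p = 0.0468), kept in 1 of 8 fits that left out a library. HLA-E has near relatives with which reads may be shared. OR2I1P was raised at both times (1.28 ± 0.10, adjusted p = 7.15e-17 at 10 h, and 1.56 ± 0.16, adjusted p = 2.27e-11 at 24 h), at 60 to 63.6 CPM after OMVs against 18.8 to 34.7 after MVs at 10 h. It lies at chr6:29550407-29557773 on the plus strand (GENCODE v44) and overlaps UBD, chr6:29555515-29559732 on the minus strand, a gene that inflammatory cytokines induce. The counting options give no strand, so the source of these reads cannot be told apart, and UBD itself had 13 counts after OMVs and 11 after MVs at 10 h.

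Of 22 tested adhesion and matrix genes (27 listed), 5 were higher, CEACAM7, CD44, SDC4 and MMP1 among them, and none was lower, with a median difference of 0.29, and 0.11 at 24 h. SDC4 alone passed at 24 h, and 4 members passed over both times, CD44, SDC4 and MMP1 among them. None of the 22 passed at 10 h without the block. MMP1, an interstitial collagenase, lay at 149, 196 and 138 CPM after OMVs at 10 h, at 43.2 and 66.4 after E. faecalis MVs and at 56.3, 87.8 and 79.8 after L. casei MVs. Every OMV library was above the MV libraries, with a difference of 1.34 ± 0.17 (adjusted p = 3.89e-06).

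SDC4, a heparan sulphate proteoglycan that binds SDCBP, lay at 235, 338 and 338 CPM after OMVs at 10 h against 183 to 259, where only replicate 2 of OMVs fell within the MV range, and at 281 and 316 against 177 to 225 at 24 h. It differed by 0.43 ± 0.06 (adjusted p = 4.49e-07) and 0.56 ± 0.07 (adjusted p = 2.23e-07). CD44, a hyaluronan receptor, lay at 18.5, 57.7 and 53 CPM after OMVs at 10 h and at 6.67 to 36.8 after MVs. Its ranges overlapped because replicate 2 was low in each group, and within each number the OMV library was higher, for a difference of 0.84 ± 0.13 (adjusted p = 2.74e-05). CEACAM7, an adhesion molecule of the colonic surface, gave 2.15 ± 0.40 (adjusted p = 4.43e-04) from 95 counts against 26, with ranges that overlapped. The call for CEACAM7 was lost without replicate 3 of OMVs or of E. faecalis MVs, with an adjusted p of up to 0.545. OLR1, a scavenger receptor for oxidised lipoproteins, was outside the lists and lay at 53.9 to 72.2 CPM against 20.8 to 25.8 at 10 h (1.46 ± 0.17, adjusted p = 3.00e-07). S100A3, a calcium-binding protein gene, gave 2.64 ± 0.48 (adjusted p = 2.11e-04) from 53 counts against 12.

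PERP, a membrane protein of desmosomes, was higher at both times. It lay at 385, 415 and 388 CPM after OMVs at 10 h and at 241 to 260 after MVs, and at 281 and 287 against 210 to 229 at 24 h. The groups did not overlap at either time, and the differences were 0.65 ± 0.05 (1.57-fold, adjusted p = 2.82e-16) and 0.38 ± 0.07 (1.30-fold, adjusted p = 4.83e-04). The 10 h call held in all 21 alternatives, the 24 h call in 15 of 19. Of the 20 junction genes tested (median 0.01 at both times), CTNNB1 (beta-catenin) was higher at 10 h (0.32 ± 0.06, adjusted p = 2.24e-04) and TJP3 (ZO-3) was lower (-0.32 ± 0.09, adjusted p = 0.0447). TJP3 passed in none of the 8 fits that left out a library. CLDN3, a claudin, gave -0.29 ± 0.15 at 10 h (adjusted p = 0.511) and 0.35 ± 0.14 at 24 h (adjusted p = 0.838). At 10 h it gave -0.61 ± 0.18 against E. faecalis MVs (adjusted p = 0.0878) and 0.04 ± 0.17 against L. casei MVs (adjusted p = 0.999). Against PBS at 10 h it gave -0.75 ± 0.18 after OMVs (adjusted p = 0.0184). The MVs gave -0.14 ± 0.19 for E. faecalis and -0.79 ± 0.19 for L. casei (adjusted p = 0.0914).

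Enterocyte genes passed the test in both directions. Of 27 tested brush border and enterocyte genes (30 listed), 1 was higher and 2 were lower at 10 h. Over all genes tested at 10 h, 0.495% were higher and 0.554% lower, and at 24 h 0.0959% and 0.00533%. EHF was higher and DPP4 lower at both times, and LCT was lower at 10 h. Without the block none of the 27 passed at 10 h or at 24 h. The median difference was -0.18 at 10 h and -0.06 at 24 h. EHF, an epithelial transcription factor of the ETS family, lay at 8.38 and 9.13 CPM after OMVs at 24 h against 1.17 to 4.21 in the 4 MV libraries, and at 4.53, 6.14 and 3.41 CPM against 1.51 to 3.83 at 10 h. The 24 h libraries were apart and those of 10 h overlapped. The differences were 2.06 ± 0.34 (4.17-fold, adjusted p = 9.31e-05) at 24 h and 1.08 ± 0.29 (adjusted p = 0.0344) at 10 h. The 24 h call was lost without replicate 3 of E. faecalis MVs (adjusted p = 0.193), and that of 10 h held in 2 of 8 fits.

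DPP4, a dipeptidyl peptidase of the brush border, was the only lower gene at 24 h. It lay at 366 CPM in replicate 2 of OMVs at 24 h, with 488 and 507 in the same replicate of the MVs, and at 255 in replicate 3, with 320 and 357. At 10 h the OMV libraries lay at 419, 329 and 325 CPM in replicates 2, 3 and 4. The MV libraries lay at 572 and 592 in replicate 2, 395 and 408 in replicate 3 and 412 in replicate 4. The ranges overlapped across replicate numbers, and DPP4 was lower in 9 of 9 same-numbered pairs. The differences were -0.38 ± 0.05 (0.771-fold, adjusted p = 8.63e-07) and -0.42 ± 0.07 (0.745-fold, adjusted p = 2.46e-05), and neither passed without the replicate block. LCT, which encodes lactase, lay at 12.2, 6.63 and 5.21 CPM in replicates 2, 3 and 4 of OMVs at 10 h, with 23.5 and 20.6, 10.8 and 7.83, and 11 in the MV libraries of those numbers. Its difference was -0.77 ± 0.18 (adjusted p = 0.0118), lost without replicate 2 of OMVs, replicate 3 of E. faecalis MVs or replicate 4 of L. casei MVs. MEP1A, the meprin A subunit of the brush border, fell by 0.60 on the log2 scale over both times (SE 0.12, adjusted p = 0.00123).

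The lower genes at 10 h were mostly small in size. Without the replicate block the only lower gene at 10 h was HAVCR1, and over both times none was lower. No other lower gene named for 10 h, XBP1 and C5 included, passed in that fit. STUM, at 3.13, 1.6 and 0.718 CPM after OMVs against 2.89 to 5.74 after MVs, had the lowest named difference (-1.22 ± 0.30, adjusted p = 0.019), and PDGFRB, a growth factor receptor, followed at -0.90 ± 0.21 (adjusted p = 0.0175). The call for STUM was kept in 4 of 8 fits that left out a library and that for PDGFRB in 2 of 8. TMEM150B, LINC02889, LDHD, ASGR1, GALNT16, NYNRIN and ANXA13 lay between -0.86 and -0.73, kept in 3 of 8 such fits for GALNT16 and in 5 to 8 of 8 for the others. Of 18 tested eicosanoid and fatty acid oxidation enzymes (21 listed), 1 was lower at 10 h and none passed at 24 h, with medians of -0.21 and 0.09. AHR, the aryl hydrocarbon receptor, was lower at 10 h (-0.32 ± 0.08, adjusted p = 0.0216, kept in 3 of 8 fits), the only one of 8 genes of its list, whose medians were -0.08 and -0.03. SPRY4, an inhibitor of MAPK signalling, was the only one of 22 immediate early and MAPK feedback genes past the test (-0.66 ± 0.16 at 10 h, adjusted p = 0.0252, kept in 3 of 8), in a list with a median of -0.28 at 10 h and -0.08 at 24 h.

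In the list of unfolded protein and amino acid stress genes (20 tested, medians 0.03 and 0.13), XBP1 was lower at 10 h, SLC7A11, the cystine transporter, was higher at 24 h, and SLC7A11, CHAC1 and PSAT1 were higher over both times. SLC7A11 lay at 18.4 and 20.9 CPM after OMVs at 24 h against 9.68 to 12.9 after MVs, a difference of 0.72 ± 0.17 (adjusted p = 0.0406) that held in none of the 6 fits without 1 library. CHAC1, which degrades glutathione, gave 1.10 ± 0.28 (adjusted p = 0.0407) and PSAT1, an enzyme of serine synthesis, 0.33 ± 0.08 (adjusted p = 0.0369) over both times, each kept in 4 of 14. WNT10B, a secreted Wnt ligand, was among the higher genes at 24 h (1.09 ± 0.23, adjusted p = 0.0164, kept in 1 of 6), as was PNMA2 (1.46 ± 0.33, adjusted p = 0.037, kept in none). AURKA, PLK1 and BUB1, which act in mitosis, were higher at 10 h by 0.20 to 0.24, 3 of 20 tested cell cycle genes with a list median of 0.03, and 0.01 at 24 h. Their calls were kept in 4, 5 and 3 of 8 fits that left out a library, and none of the 20 passed without the block. No gene of the lists of sterol and fatty acid synthesis (21 tested, median -0.10 at 10 h and -0.02 at 24 h) or hypoxia and glycolysis (15 tested, medians 0.03 and 0.10) passed at 10 h, at 24 h or over both times. GRK5, MST1, GSTA2 and PRDX6-AS1 were lower over both times by 0.47 to 0.51 on the log2 scale (adjusted p from 0.00767 to 0.0452), kept in 10, 7, 7 and 4 of 14 fits. The last, an antisense gene, cannot be told apart from PRDX6 without strand.

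**Figure D4:**
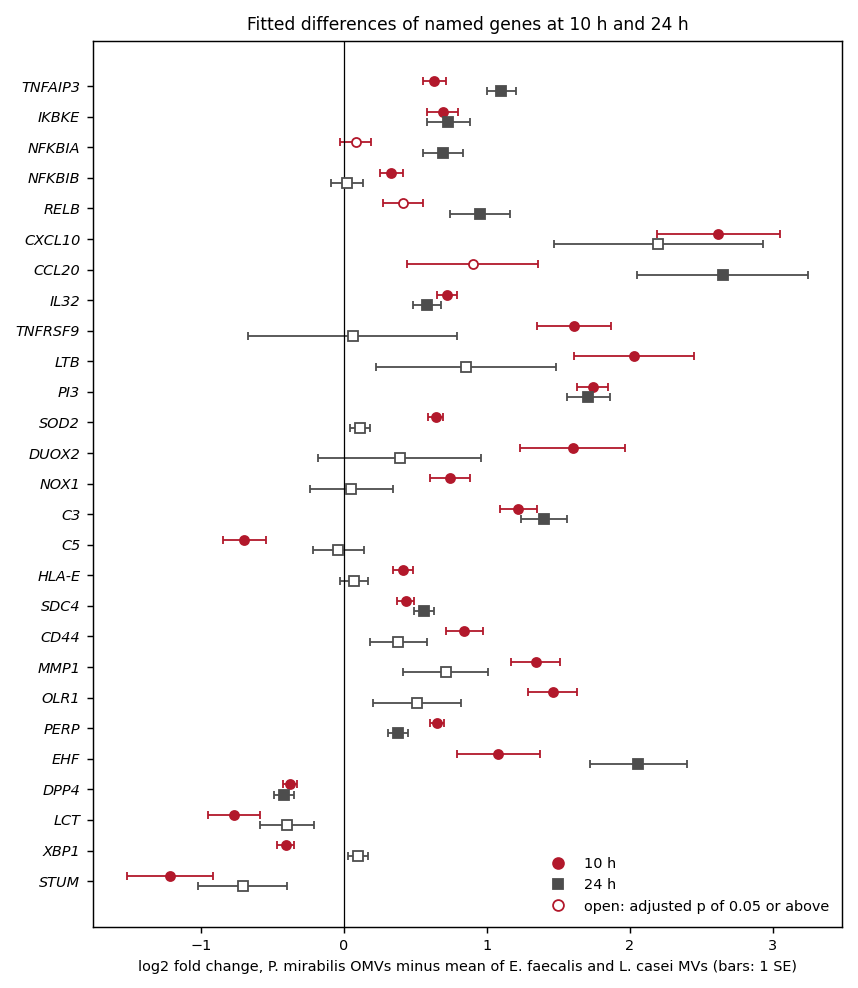
Log2 difference between P. mirabilis OMVs and the mean of both MVs for 27 named genes at 10 h (red circles) and 24 h (grey squares), with bars of 1 SE and filled symbols where the adjusted p was under 0.05. TNFAIP3, IKBKE, IL32, PI3, C3, SDC4, PERP, EHF and DPP4 were filled at both times, while SOD2 and XBP1 were filled at 10 h and near 0 at 24 h.

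**Figure D5:**
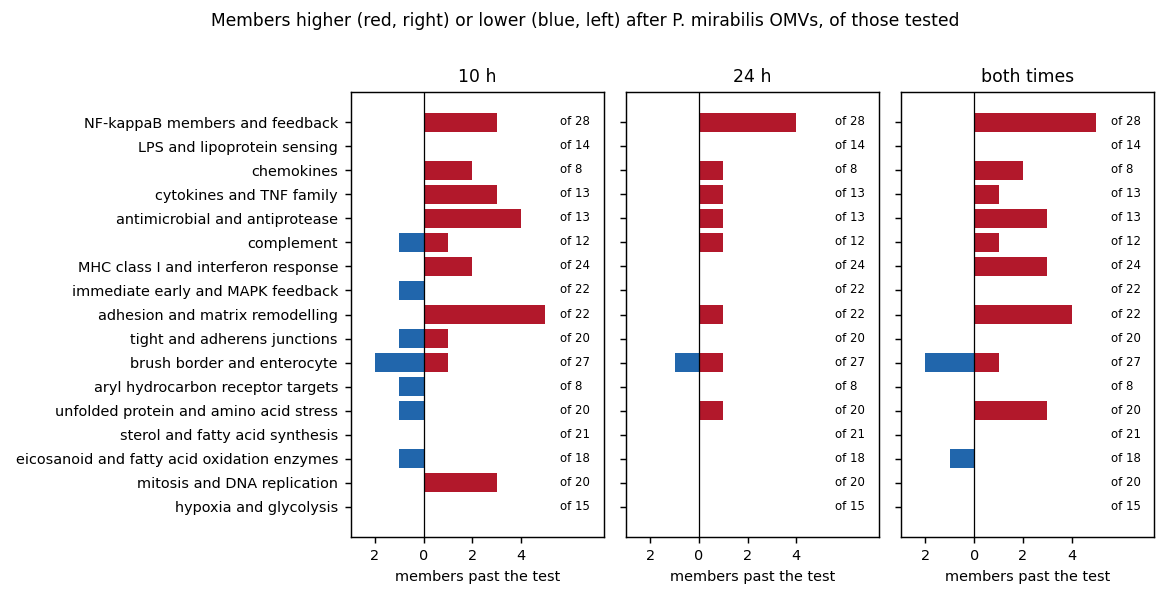
Number of members of each of 17 gene lists that were higher (red, to the right) or lower (blue, to the left) after P. mirabilis OMVs at 10 h, at 24 h and over both times, with the number tested printed at the right. Adhesion and matrix genes gave 5 higher at 10 h and NF-kappaB genes 4 higher at 24 h.

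The sensing genes themselves did not pass the test. None of 14 tested members (23 listed) of the LPS and lipoprotein sensing list was called at either time or over both, with medians of 0.03 and 0.02. TLR4 had 0 counts in the 8 libraries of 10 h and 1 count in the 6 of 24 h, and LY96 had 0 in all 14. At these depths this allows a low level only and does not show absence. TLR2 lay at 8.98 to 10.2 CPM after OMVs and 6.27 to 13.6 after MVs at 10 h, for a difference of 0.08 ± 0.17 (adjusted p = 0.927). CD14 lay at 6.1 to 8.08 against 4.94 to 9.17 CPM (0.09 ± 0.19, adjusted p = 0.934). TLR5, the flagellin receptor, gave 0.82 ± 0.33 at 24 h (adjusted p = 0.838).

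Each Gram-positive species was then taken on its own. At 10 h, 160 genes differed between OMVs and E. faecalis MVs and 95 between OMVs and L. casei MVs. Both tests were passed with the same sign by 55 genes (0.293%), 35 higher and 20 lower, all among the 197 of the pooled test, and 47 of the 197 passed against neither species alone. The tests against each species share the OMV libraries, and the pooled difference is the mean of theirs. Their overlaps are therefore partly built in, at 10 h and at 24 h. At 24 h, 8 genes passed against both species (0.0426%). They were IL32, TNFAIP3, PI3, SDC4, C3, EHF and OR2I1P, all higher, and DPP4, lower. TNFAIP3 gave the same difference from E. faecalis and from L. casei MVs at 24 h, 1.10 (adjusted p = 4.61e-09 and 1.18e-10). The 10 h count fell to 22 and 36 without replicates 3 and 2 of E. faecalis MVs, to 25 without replicate 2 of OMVs and to 31 and 34 without replicates 3 and 4 of L. casei MVs. The 24 h count fell to 4 without replicate 3 of E. faecalis MVs and to 5 without replicate 2 of OMVs. Without the block the counts were 7 and 3.

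Between the Gram-positive vesicles few genes passed the test, with 2 against 3 libraries at 10 h and 2 against 2 at 24 h. So few libraries do not show that the vesicles act alike. CXCL5 at 10 h, with 0 counts after E. faecalis MVs and 19 after L. casei MVs, did not pass (adjusted p = 0.261). E. faecalis and L. casei MVs differed in 1 gene at 10 h (1127 at an unadjusted p under 0.05), CYP1A1, and in 2 at 24 h (772), CYP1A1 and FMOD, the latter named after its value was seen. Of these counts, 1127 is more and 772 fewer than a share of 0.05 of the 18775 genes tested. CYP1A1, a cytochrome P450 induced by the aryl hydrocarbon receptor, lay at 112, 104.4 and 90.7 CPM after OMVs at 10 h, at 61.5 and 67.5 after E. faecalis MVs and at 282, 212 and 123 after L. casei MVs. By 24 h the values were 5.67 and 13.5, 15.9 and 8.69, and 40.5 and 68.2 CPM in the same order. OMVs lay between the MVs at 10 h, higher than E. faecalis MVs by 0.83 (adjusted p = 0.0432) with a difference of -0.98 from L. casei MVs (adjusted p = 6.35e-04). Against the mean of both MVs the difference was -0.07 ± 0.16 (adjusted p = 0.929). At 24 h OMVs were below L. casei MVs (-2.43, adjusted p = 9.29e-05) and gave -0.07 against E. faecalis MVs (adjusted p = 1).

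PBS gave the untreated level, with 2 libraries at each time, shared by the comparisons of all vesicles with it. TNFAIP3 lay at 41.1 and 40 CPM in PBS at 10 h and at 36.3 and 29.4 at 24 h. Against PBS it rose by 0.86 ± 0.11 after OMVs at 10 h (adjusted p = 2.51e-08), with 0.22 ± 0.12 after E. faecalis MVs (adjusted p = 1) and 0.24 ± 0.11 after L. casei MVs (adjusted p = 0.628). At 24 h the values were 1.25 ± 0.12 (adjusted p = 4.41e-13), 0.14 ± 0.14 (adjusted p = 1) and 0.15 ± 0.12 (adjusted p = 1). For PI3 at 24 h they were 1.92 ± 0.18 (adjusted p = 4.81e-12), 0.10 ± 0.23 and 0.32 ± 0.20. C3 at 10 h gave 1.68 ± 0.19 after OMVs (adjusted p = 2.35e-07), 0.34 ± 0.21 after E. faecalis MVs (adjusted p = 1) and 0.58 ± 0.19 after L. casei MVs (adjusted p = 0.444). DPP4 fell by 0.37 on the log2 scale after OMVs at 10 h (SE 0.07, adjusted p = 2.57e-04), with -0.01 ± 0.07 and 0.03 ± 0.07 after the MVs. XBP1 fell by 0.41 after OMVs at 10 h (SE 0.08, adjusted p = 8.65e-04), beside 0.02 ± 0.09 and -0.01 ± 0.08. For several genes that were higher than after MVs, CHAC1 and LTB among them, no rise above PBS passed the test after OMVs. CHAC1 gave 0.57 ± 0.49 after OMVs at 10 h (adjusted p = 0.734). At 24 h it gave 0.82 ± 0.43 after OMVs, -0.85 ± 0.57 after E. faecalis MVs and -1.17 ± 0.53 after L. casei MVs. LTB at 10 h gave 1.39 ± 0.54 (adjusted p = 0.248), -1.12 ± 0.86 and -0.15 ± 0.67 in the same order. OMVs against PBS at 10 h also did not pass for NFKBIB, CTNNB1, S100A3, AURKA, PLK1 and BUB1 (adjusted p from 0.0532 to 0.31). The same held at 24 h for SLC7A11 (adjusted p = 0.119) and PNMA2 (adjusted p = 0.0762), and at both times for PIGR (adjusted p = 0.115 and 0.27). IL32, PERP, SOD2, MMP1 and CXCL10 did pass at 10 h (adjusted p of 0.00206 or less). CYP1A1 rose after L. casei MVs at both times (1.52 ± 0.20, adjusted p = 1.72e-04, and 2.17 ± 0.31, adjusted p = 6.54e-04), while OMVs gave 0.54 ± 0.21 and -0.27 ± 0.45, neither of which passed.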

How the data were processed

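Total RNA of Caco-2 cells was sequenced from both ends after depletion of ribosomal RNA. Per the labels, STAR and featureCounts were used on GRCh38. The table that the authors deposited holds read counts, not normalized, for 63241 genes in 105 libraries, and no strand option is stated. Symbols matched 62666 gene IDs, version numbers left aside. Groups came from the labels alone.

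Genes were kept by filterByExpr (18775). The quasi-likelihood test of edgeR 4.0.16 (TMM, dispersion trend, robust glmQLFit, Benjamini-Hochberg, two-sided) was fitted to 66 libraries, those in lanes 2 to 4 of 1 flow cell being set aside, with all groups and the replicate number as a block. The SE is the absolute log2 difference over the square root of F, and was not taken where F was near 0. CPM used TMM factors over all libraries. Deviations of same-numbered libraries correlated at 0.30 to 0.61 in 13 pairs. These 13 are not independent, because libraries recur among them. At 24 h, replicates 2 and 3 gave the same value for each pair of vesicles. It was 0.43 for OMVs with E. faecalis MVs, 0.55 for OMVs with L. casei MVs and 0.43 between the MVs. The pairing rests on these values, which amount to fewer than 13 separate ones. No 2 of the libraries were identical. Named genes were the 10 highest and 10 lowest past the test in each comparison, list members past it, and a fixed panel. Lists, members and the lanes set aside were chosen with earlier results of these data known. The code was tested on simulated data. Alternatives used DESeq2 1.42.0, limma 3.58.1 (voom), other scaling, filters and designs, and left out each library in turn. Some genes are not reported here.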

Additional observations from a re-analysis of the deposited data

Results flagged for a closer look

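In 63 checks of the MV libraries, each of a gene past the test at that time, 2 held a library far from the others by Dixon's criterion, and chance gives about 1 in 20. Both were replicate 2 of E. faecalis MVs at 24 h, the shallowest of the libraries. NFKBIA lay there at 12.4 CPM, with 26.2 to 30.2 in the other 3, and PNMA2 at 0.691 CPM, with 2.19 to 2.58 in the others.

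The difference between OMVs and MVs itself changed from 10 to 24 h for XBP1 (0.51 ± 0.10, adjusted p = 0.012), SDCBP (-0.70 ± 0.14, adjusted p = 0.0481) and SOD2 (-0.52 ± 0.09, adjusted p = 6.99e-04). Between the Gram-positive species, E. faecalis minus L. casei MVs, CYP1A1 differed by -1.81 ± 0.20 at 10 h (adjusted p = 3.37e-06) and -2.37 ± 0.37 at 24 h (adjusted p = 0.00351), and FMOD by -0.56 ± 0.11 at 24 h (adjusted p = 0.0308). The particle number of L. casei MVs was 1.5e+11 and that of E. faecalis MVs 7.5e+09, so species and dose cannot be told apart here either.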

How the results depend on the processing

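The counts of genes past the test at 10 h, at 24 h, over both times, for the change between times, and against each Gram-positive species at 10 and at 24 h were 197, 19, 129, 3, 55 and 8. In that order, they were 20, 3, 13, 0, 7 and 3 with no replicate block, 8, 0, 7, 0, 0 and 0 with every library and the block, 6, 0, 5, 0, 0 and 0 with every library and no block, and 615, 45, 328, 26, 135 and 15 with the block fitted within each time. In edgeR, the counts of 0 stood beside 824 and 523 genes at 24 h and 472, 575 and 371 genes between times at an unadjusted p under 0.05. Each of these is fewer than a share of 0.05 of the 18775 genes tested, the share that would fall there if no gene differed. All 20 genes at 10 h without the block were among the 197. With vesicle libraries alone there were 304 genes at 10 h and 7 between times, with replicates 2 and 3 alone 99 at 10 h, 80 over both times and 31 against each species at 10 h, with flow cell and lane as terms 30 at 24 h and 207 over both times, and with no filter 7 between times. DESeq2 gave 229, 19, 145, 3, 59 and 8, and limma voom 199, 18, 121, 2, 51 and 7. The cause of these shifts was not tested.

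Without 1 library the counts ran from 71 to 178 at 10 h, 9 to 16 at 24 h, 54 to 123 over both times, 0 to 4 between times, 22 to 47 against each species at 10 h and 4 to 7 at 24 h. The fits with 1 library left in a group assume that it varies like the other groups. At 24 h the count was 9 without replicate 2 of OMVs, 11 without replicate 3 of E. faecalis MVs and 12 without replicate 2 of L. casei MVs. Over both times it was 54 and 81 without replicates 2 and 3 of OMVs at 24 h, 73 without replicate 2 of OMVs at 10 h, 76 and 80 without replicate 3 of E. faecalis MVs at 10 and 24 h, and 85 without replicate 4 of L. casei MVs at 10 h.

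Of 107 gene results past the test, 10 stayed past it under every alternative that gave an adjusted p: PERP, PI3 and CXCL10 at 10 h and over both times, SOD2 and CXCL5 at 10 h, and TNFAIP3 and EHF over both times. For CXCL5, CXCL10 and EHF among these, DESeq2 gave no adjusted p. None changed direction. Leaving out 1 library kept 830 of 1088 calls and the other alternatives 1033 of 1377. The 2 libraries a group at 24 h and the few counts of chemokine genes limit the depth behind these values.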

Other observations

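Further genes, chosen after their values were seen, were higher at 10 h outside the lists. AXIN2, a feedback inhibitor of Wnt signalling, lay at 71.5 to 89.1 CPM after OMVs and 45.2 to 52.6 after MVs, without overlap (0.67 ± 0.10, adjusted p = 4.52e-05), and at 46.2 to 48.7 against 45.2 to 58.1 at 24 h. NKD1, another Wnt feedback gene, gave 0.37 ± 0.08 at 10 h (adjusted p = 0.00168), LGR5, a receptor of R-spondins, 0.51 ± 0.12 (adjusted p = 0.0156) and TNFRSF19 0.46 ± 0.12 (adjusted p = 0.0395). Their changes between the times did not pass the test, with adjusted p of 0.307 for AXIN2, 0.345 for NKD1, 0.767 for LGR5 and 0.772 for TNFRSF19. AXIN2 also passed without the replicate block, and NKD1, LGR5 and TNFRSF19 did not. At 10 h the ranges overlapped for NKD1 (134 to 156 CPM after OMVs against 87.6 to 135 after MVs). They also overlapped for LGR5 (32.8 to 83.4 against 15.4 to 63.4), and not for TNFRSF19 (89.6 to 122 against 68.6 to 79.3). No list of Wnt genes was drawn up, so these genes give no share of such a list.

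SAT1, which starts the breakdown of polyamines, lay at 53.6 to 71.6 CPM after OMVs against 27.1 to 40.9 at 10 h (0.99 ± 0.09, adjusted p = 5.79e-15). ABAT, which degrades the transmitter GABA, lay at 74.9 to 84.1 against 43 to 50 CPM (0.78 ± 0.09, adjusted p = 1.56e-09). JAK1, a kinase of cytokine receptors, and IFNGR1, a chain of the interferon gamma receptor, were higher by 0.46 ± 0.07 and 0.37 ± 0.07 (adjusted p = 2.09e-05 and 5.43e-04). HAVCR1 lay at 199 to 208 CPM after OMVs against 249 to 298 after MVs (-0.44 ± 0.07, adjusted p = 7.97e-06), and at 24 h the ranges overlapped.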
